A study of Astyanax mexicanus with 18 samples.

Results

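Mitochondrial ribosomal proteins build the ribosome inside the mitochondrion, and their transcripts were followed here in fish livers before and after a meal. Members were taken by name: every row of the expression table whose symbol reads mrpl or mrps followed by a number and at most 1 letter, with or without a suffix in brackets, and with at least 1 TPM (transcripts per kilobase, scaled to a fixed total per library) in 3 or more libraries. The rule gave 66 of 27420 rows, and no row of that name pattern failed the filter. By name 40 belong to the large subunit and 26 to the small subunit. They carry 65 symbols, because mrps24 is listed under 2 gene IDs. Of the members, 64 had at least 1 TPM in every one of the 12 libraries, and the mrps24 rows had it in 11 and 8. RefSeq names 12 further genes of the pattern in this species, among them mrps12, mrps22 and mrpl33, which were not analysed here.

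The mitochondrial ribosome translates the few proteins that mitochondrial DNA encodes, which are core subunits of the respiratory chain and of ATP synthase. Its RNAs come from mitochondrial DNA, while its proteins are encoded in the nucleus, made in the cytosol and imported. The small subunit binds and decodes the messenger RNA, and the large subunit forms the peptide bonds. Many of these proteins have a counterpart in bacterial ribosomes, and others are found only in mitochondria. Liver is rich in mitochondria, which burn fat during a fast and supply carbon for fat synthesis after a meal.

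The livers came from Astyanax mexicanus of 4 months, either from the eyed surface population or from Pachón cavefish, blind fish of the same species. Each population gave 3 libraries after a 4-day fast, here called starved, and 3 libraries from fish dissected 3 hours after they had then eaten 10 mg of feed, here called refed. Both populations were raised and fed alike, and nothing in the labels ties a library to a single fish, so p-values measure only the spread between these libraries. The other 6 libraries of the series are ChIP-seq and were not analysed here.

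How deeply each library was sequenced is not known from TPM, and no counting error can be given. The liver label held in every library by fabp10a, the fatty acid binding protein of hepatocytes, at 27975 to 138032 TPM. The 9 hepatocyte markers in the table summed to 72717 TPM in starved surface replicate 2 and to 124532 to 184965 TPM in the other libraries. Of these markers apoa1a ran from 0 to 10.6 TPM, and each of the others had at least 382 TPM in every library. Skeletal muscle markers summed to at most 0.42 TPM, exocrine pancreas markers to 5.95 to 30.25 TPM and ovary markers to 1.86 to 8.08 TPM. Adipocyte markers, 3 of 7 in the table, summed to 596 TPM in refed surface replicate 3. In the other libraries they summed to 79.6 to 394 TPM, and their part in the results was not tested. The intestine markers, 2 of 4 in the table, summed to 121 TPM in starved surface replicate 3 and to at most 14.8 TPM in the other libraries, nearly all of it fabp2, while vil1 reached 0.14 TPM. In bulk tissue, fewer cells of a type and less RNA per cell cannot be told apart. TPM are shares of a library, so a higher value can also come from less of other transcripts.

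Members had mean levels over the 12 libraries from 3.39 TPM (mrpl13) to 142 TPM (mrps25), with a median of 14.2 TPM for the large and 17.9 TPM for the small subunit. The 5 most abundant, mrps25, mrpl41, mrpl57, mrps18c and mrps21, made up 25.4% to 39.7% of the members' summed TPM, so sums are led by a few genes. TPM are corrected for transcript length, which allows levels to be compared between genes.

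In starved surface fish the members summed to 1287 ± 278 TPM (SD, n = 3), with libraries from 979 to 1517 TPM. Refed surface fish had 1601 ± 251 TPM, from 1321 to 1804 TPM, and the groups overlapped. Starved Pachón cavefish had 1007 ± 152 TPM, from 841 to 1139 TPM. Refed Pachón cavefish had 2385 ± 354 TPM, from 2128 to 2789 TPM, above every library of the other 3 groups. The summed level after the meal was 1.24 times the starved level in surface fish and 2.37 times in Pachón cavefish. For the large subunit alone the ratios were 1.28 and 2.33, and for the small subunit 1.20 and 2.41.

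In the ratio of the subunits' sums, the libraries of each group overlapped with those of every other group. Summed TPM of the large subunit over that of the small subunit was 1.03 ± 0.150 in starved and 1.06 ± 0.0966 in refed surface fish, and 1.15 ± 0.121 in starved and 1.102 ± 0.00962 in refed Pachón cavefish. On the mean of log2(TPM + 1), where each member counts alike, the small subunit was ahead in every library, and by more after the meal. The large subunit minus the small subunit was -0.28 ± 0.08 in starved and -0.46 ± 0.04 in refed surface fish. In Pachón cavefish it was -0.20 ± 0.08 and -0.45 ± 0.03. Refed and starved libraries did not overlap in either population. They also did not overlap with a pseudocount of 0.1, with mrps30 and mrps18a counted as large and mrps36 left out, or without mrps36 and both mrps24 rows. These alternatives for the subunit difference were chosen after the data were seen. No test was made of a score over members.

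**Figure D1:**
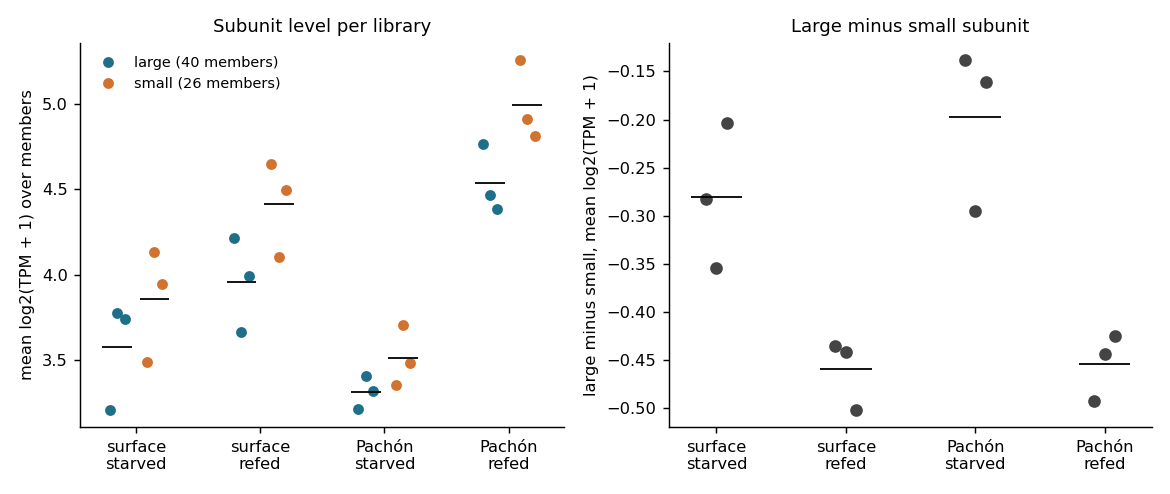
Left, the mean of log2(TPM + 1) over the 40 large and the 26 small subunit members, 1 point per library, with a bar at the mean of 3 libraries. Right, the large minus the small subunit on the same scale: the libraries of refed fish lie lower than those of starved fish in both populations (-0.46 against -0.28 in surface fish, -0.45 against -0.20 in Pachón cavefish).

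Members shared their spread between replicates. Of the 66 members, 4 lay above their group's mean in starved surface replicate 1, against 54 and 49 in replicates 2 and 3. In refed surface fish the counts were 58, 3 and 47. In starved Pachón cavefish they were 21, 48 and 35, and in refed Pachón cavefish 63, 23 and 7. A library that was low or high was thus so for most members at once, and the calls of single members are not independent of each other. The same counts over all tested genes were not taken, so the shared spread is not shown to be particular to the members.

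In Pachón cavefish, most mitochondrial ribosomal protein genes rose after the meal. Changes are given as log2 fold changes of TPM + 1 with the standard error of the fit, a scale that understates the change of low genes. A gene is said to rise or fall where limma's Benjamini-Hochberg adjusted p, taken over the 13157 genes tested, was under 0.05. In this comparison 54 of the 66 members rose and none fell, against 22.9% of all tested genes that rose and 7.64% that fell. At an unadjusted p under 0.05, 59 members were higher, against 29.4% of all tested genes, and 65 members lay above 0, against 60.2%. The members' median change was 1.35, against 0.17 over all tested genes, and 40 members changed at least 2-fold. The share of all tested genes that changed as much was not taken, so this count has no measure beside it. Refed libraries lay above starved ones without overlap for 61 members, against 35.7% of all tested genes, and below them for 1, against 15.3%. In the large subunit 31 of 40 members rose, with a median of 1.09. In the small subunit 23 of 26 rose, with a median of 1.57.

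The largest fitted change, 3.16 ± 0.75 (limma adjusted p = 0.00828), was that of the mrps24 row ENSAMXG00000042740, whose libraries spread widely and are given further on. mrpl46 (ENSAMXG00000030876), a protein of the central protuberance where the large subunit meets the small one, had 1.31, 2.82 and 1.74 TPM in the 3 starved and 26.1, 17.8 and 14.5 TPM in the 3 refed Pachón libraries. It rose by 2.78 ± 0.36 (limma adjusted p = 0.000322). mrps27 (ENSAMXG00000006286), an RNA-binding pentatricopeptide repeat protein of the small subunit, had 2.15, 1.94 and 1.40 TPM when starved and 23.8, 16.1 and 12.4 TPM when refed. These groups lay far apart, and the change was 2.67 ± 0.25 (limma adjusted p = 0.00012).

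mrpl12 (ENSAMXG00000032543) encodes the protein of the stalk that recruits translation factors, and in humans it also binds the mitochondrial RNA polymerase. Its level was 3.14, 3.41 and 3.68 TPM in starved and 33.2, 18.9 and 18.2 TPM in refed Pachón libraries, a change of 2.42 ± 0.31 (limma adjusted p = 0.000337). The starved libraries were nearly level, and the spread of the refed ones came from replicate 1, the highest. mrps17, a small subunit protein with a bacterial counterpart, rose by 2.29 ± 0.35, and mrpl51, found only in mitochondria, by 2.25 ± 0.27 (limma adjusted p of 0.000664 and 0.00023). mrpl30, which has a bacterial counterpart, rose by 2.17 ± 0.41 (limma adjusted p = 0.00219).

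mrpl2 and mrpl3, whose bacterial counterparts lie in the core near the peptidyl transferase centre, rose by 1.36 ± 0.31 and 0.77 ± 0.21 (limma adjusted p of 0.00702 and 0.0174). mrpl4 and mrpl22, whose bacterial counterparts line the exit tunnel, rose by 0.83 ± 0.28 and 0.77 ± 0.25 (limma adjusted p of 0.0438 and 0.0345). mrpl45, which in mammals sits at the tunnel exit and ties the ribosome to the inner membrane, rose by 1.89 ± 0.27 (limma adjusted p = 0.000529). The call of mrpl3 was kept under 19 of 23 alternatives, that of mrpl4 under 8 and that of mrpl22 under 14, with adjusted p up to 0.164, 0.334 and 0.284.

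The 12 members without an adjusted p under 0.05 in Pachón cavefish were 9 of the large and 3 of the small subunit. Some of them, such as mrpl58 and mrpl44, had an unadjusted limma p under 0.05. mrpl58, a peptidyl-tRNA hydrolase that in humans rescues stalled ribosomes, changed by 0.69 ± 0.28 (limma adjusted p = 0.0832). mrpl44, which carries an RNase III-like fold, had 6.34 to 10.3 TPM in starved and 12.2 to 16.6 TPM in refed libraries (limma adjusted p = 0.0866). mrpl41, among the most abundant members, had 52.4, 83.6 and 116 TPM in starved and 107, 120 and 115 TPM in refed libraries, which overlapped. mrps25, the most abundant member, changed by 0.76 ± 0.36 and mrps16 by 0.55 ± 0.28 (limma adjusted p of 0.137 and 0.163). In surface fish their mean TPM after the meal was 0.80 and 0.76 times the starved mean, with libraries that overlapped. mrpl37 stayed nearest to 0, with 21.7, 20.9 and 16.9 TPM before and 21.7, 19.3 and 19.2 TPM after the meal, a change of 0.02 ± 0.23 with a 95% interval from -0.47 to 0.52.

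mrps5 (ENSAMXG00000033743), whose bacterial counterpart helps the ribosome read the code accurately, went against the rest. It had 21.9, 34.8 and 32.4 TPM in starved and 19.9, 19.1 and 18.4 TPM in refed Pachón libraries, so the refed libraries were the lower ones without overlap. The change of -0.58 ± 0.35 did not pass the test (limma adjusted p = 0.245). In surface fish it had 56.8, 21.2 and 46.2 TPM when starved and 25.0, 18.9 and 13.0 TPM when refed, with 1 starved library inside the refed range, and the change was -1.02 ± 0.35 (limma adjusted p = 0.0659). With libraries weighted by their spread, mrps5 passed the test in both populations (limma adjusted p of 0.0204 and 0.0454). Under every other alternative run, no member was called lower in Pachón cavefish.

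Of the 54 calls in Pachón cavefish, 38 stood under every alternative run for single genes. Leaving out 1 library at a time left 41 to 56 calls, all higher, where 16.4% to 25% of all tested genes rose. Scaling by median-of-ratios moved the median of all tested genes from 0.17 to -0.05, and 41 members rose and none fell, against 16.3% of all tested genes. Over all tested genes the calls went from 3019 higher and 1005 lower to 2151 and 1889. Relative to the median of all tested genes, the members' median was 1.17 as deposited, 1.09 with median-of-ratios and 1.00 with quantile normalization. Erythrocyte markers had 5 rows, with hbaa2 on more than 1 of them, and none was at 0. They summed to 546 to 608 TPM in starved and 223 to 354 TPM in refed Pachón libraries, and their part in the result was not tested.

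**Figure D2:**
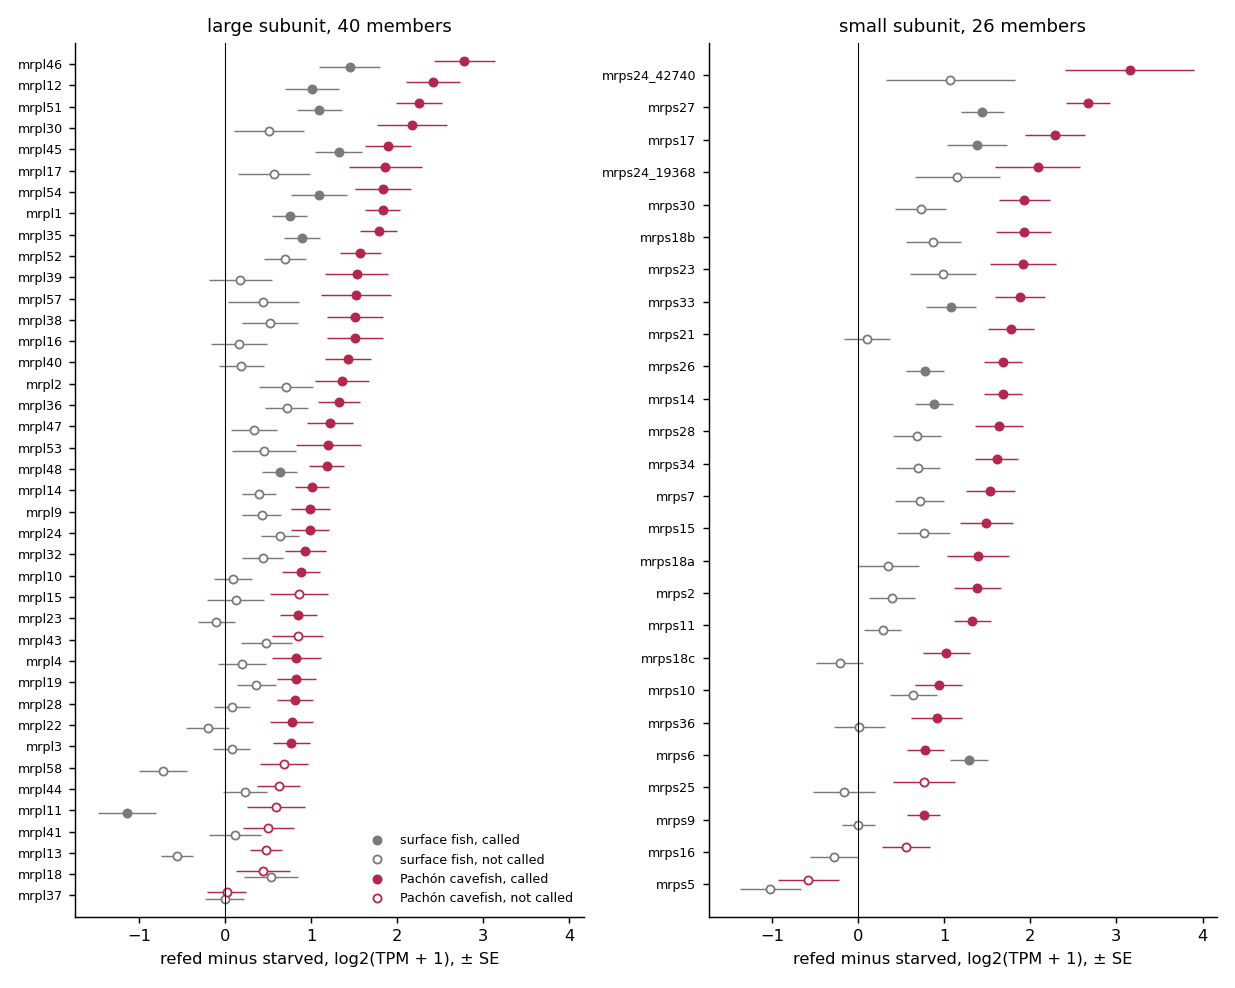
Change after the meal of each member, refed minus starved on the log2(TPM + 1) scale with the standard error, large subunit left and small subunit right, sorted by the change in Pachón cavefish. Filled points passed the test: 54 rose in Pachón cavefish, and 14 rose and 1 fell in surface fish.

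In surface fish 14 members rose after the meal and 1 fell, against 9.03% and 9.68% of all tested genes. The other 51 had no adjusted p under 0.05. Those that rose were 8 of 40 large and 6 of 26 small subunit members. The members' median change was 0.47, against -0.04 over all tested genes, with 0.43 in the large and 0.70 in the small subunit, and 56 members lay above 0, against 47% of all tested genes. Refed libraries lay above starved ones without overlap for 20 members, against 14.9% of all tested genes, and below them for 3, against 17.8%.

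mrpl46 and mrps27 had the largest changes among the members in surface fish. mrpl46 had 2.01, 5.61 and 3.41 TPM in starved and 16.4, 7.26 and 11.4 TPM in refed surface libraries, a change of 1.45 ± 0.36 (limma adjusted p = 0.018). mrps27 had 2.24, 3.76 and 2.71 TPM when starved and 10.6, 7.54 and 10.6 TPM when refed, a change of 1.44 ± 0.25 (limma adjusted p = 0.00373). Neither gene's groups overlapped. mrps17 rose by 1.38 ± 0.35, mrpl45 by 1.32 ± 0.27, mrpl51 by 1.098 ± 0.27, mrpl54 by 1.09 ± 0.32, mrps33 by 1.08 ± 0.29 and mrpl12 by 1.01 ± 0.31 (each with a limma adjusted p no higher than 0.0458). Among these 8 genes mrps27 and mrpl45 kept the call under every alternative run, and the adjusted p of mrpl46 went up to 0.0804. Among all 14 members that rose, the least stable calls were those of mrpl12 and mrpl48, each kept under 10 of 23 alternatives, and mrpl54, kept under 11. Their adjusted p went up to 0.141, 0.161 and 0.146.

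mrps6 (ENSAMXG00000026285), a small subunit protein with a bacterial counterpart, was a member whose change was higher in surface fish than in Pachón cavefish, as was that of mrpl18. Starved surface libraries had 33.5, 38.9 and 33.3 TPM and refed ones 86.8, 76.3 and 100.2 TPM, a change of 1.29 ± 0.22 (limma adjusted p = 0.00312). In Pachón cavefish it had 23.8, 38.3 and 29.3 TPM before and 55.0, 46.8 and 54.8 TPM after the meal, a change of 0.78 ± 0.22 (limma adjusted p = 0.0188). The refed surface libraries were above every other library. The difference between the responses was -0.51 ± 0.31 and did not pass the test (limma adjusted p = 0.423). The surface call stood under every alternative run, and the Pachón call ended under 7 of 23 alternatives.

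mrpl11 (ENSAMXG00000036903), which forms the base of the stalk together with the ribosomal RNA, was the member that fell in surface fish. Starved libraries had 7.65, 25.2 and 12.3 TPM and refed libraries 6.11, 4.17 and 6.73 TPM, a change of -1.14 ± 0.33 (limma adjusted p = 0.0365). The starved libraries spread widely, and the call was lost under 13 of 23 alternatives, with adjusted p up to 0.159. In Pachón cavefish mrpl11 had 4.81, 6.23 and 5.70 TPM before and 8.99, 8.14 and 9.53 TPM after the meal, without overlap in the other direction, a change of 0.59 ± 0.33 that did not pass the test (limma adjusted p = 0.212).

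mrpl13 and mrpl58 had the same layout at low levels, with no adjusted p under 0.05 for the meal in either population. mrpl13, a large subunit protein with a bacterial counterpart, had 3.06, 3.72 and 4.16 TPM in starved and 2.90, 1.80 and 1.86 TPM in refed surface libraries (limma adjusted p = 0.0582). In Pachón cavefish it had 2.92, 3.44 and 2.81 TPM before and 5.46, 4.53 and 4.05 TPM after the meal (limma adjusted p = 0.0703). mrpl58 had 5.46, 6.00 and 6.92 TPM in starved and 4.97, 3.10 and 2.30 TPM in refed surface libraries. Its Pachón libraries held 2.70, 4.09 and 6.04 TPM before and 8.74, 7.67 and 5.60 TPM after the meal, with 1 refed library inside the starved range.

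The calls in surface fish changed with single libraries. Of the 14 members that rose, mrps27, mrps6 and mrpl45 kept the call under every alternative run. Without refed replicate 1, 7 members were called, 5 of them higher. Without refed replicate 3 there were 4, without starved replicate 1 there were 5, 4 of them higher, and without starved replicate 3 there were 9. A fit of the surface libraries alone called 3. Without refed replicate 2, 16 members were higher and 0 lower, and without starved replicate 2, 17 and 1. The share of all tested genes called in either direction also moved. It was 18.7% with all libraries, 15.7% and 10.9% without refed replicate 1 or 3, and 6.36% in the surface fit. Without starved replicate 1 or 3 it was 14% and 12.9%, and without refed or starved replicate 2 it was 16.6% and 17.7%. Macrophage markers, 5 of 7 in the table and none at 0, summed to 355 TPM in starved surface replicate 1 and to 50.2 to 207 TPM in the other libraries, and their part in these calls was not tested.

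**Figure D3:**
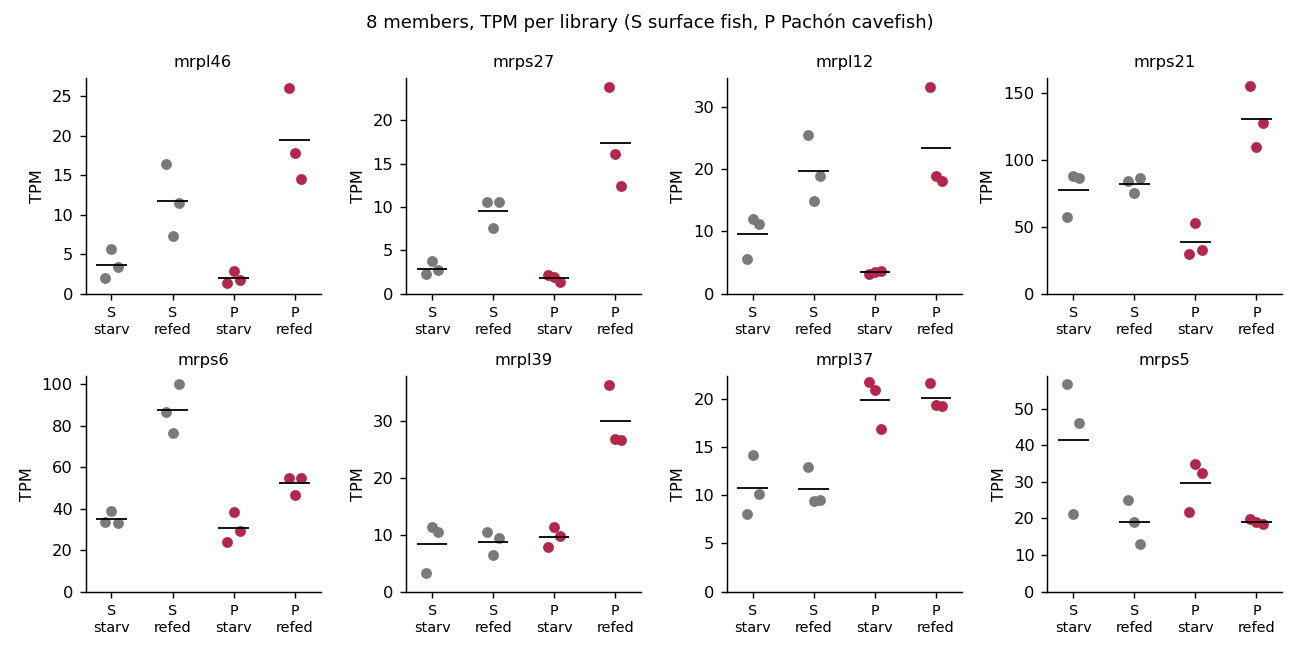
TPM of 8 members in each library, with a bar at the mean of 3 libraries, for surface fish (S, grey) and Pachón cavefish (P, red), starved and refed. mrpl46, mrps27 and mrpl12 rise in both populations, though the surface call of mrpl12 was kept under only 10 of 23 alternatives. mrps21 and mrpl39 rise in Pachón cavefish and mrps6 most in surface fish. mrpl37 differs between populations with no change at the meal (0.02 ± 0.23 in Pachón cavefish).

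The members that rose in surface fish were also among those that rose in Pachón cavefish: all 14 did so, where 54 of the 66 members, or 81.8%, rose. The changes share no library, but the calls share 1 estimate of each gene's spread. Across the 66 members Pearson's r between the changes was 0.77 and Spearman's rho 0.786, given as a description because members share libraries. The change was larger in Pachón cavefish for 64 members, and mrps6 and mrpl18 were the exceptions. In 11 members neither response passed the test, and the share of all tested genes in which neither passed was not taken.

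**Figure D4:**
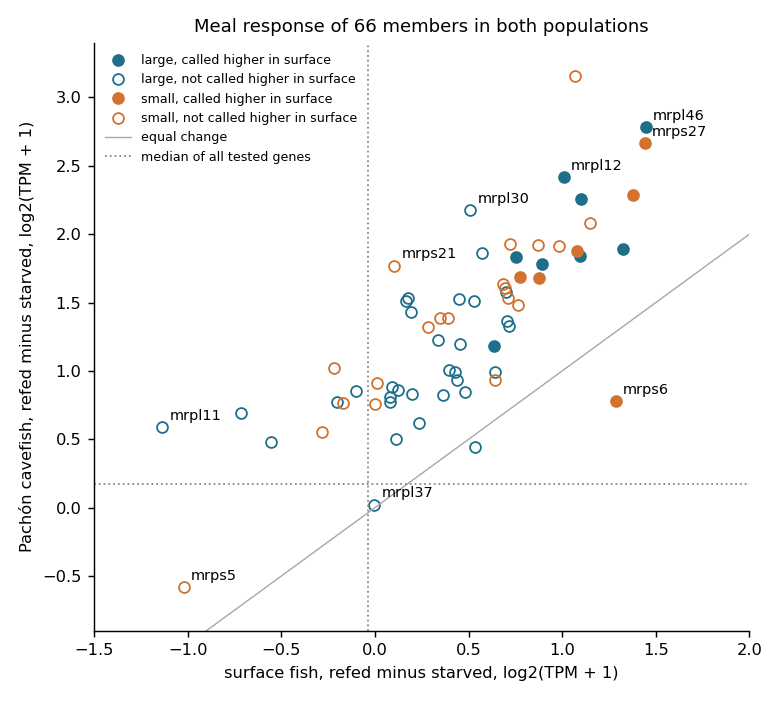
Change after the meal in surface fish (x axis) and Pachón cavefish (y axis), refed minus starved on the log2(TPM + 1) scale, 1 point per member. Of the 66 points 64 lie above the line of equal change, and dotted lines mark the median of all tested genes (-0.04 and 0.17).

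The difference between the responses was tested directly, and no member passed. The lowest limma adjusted p was 0.13, for mrps21, and 0.0684% of all tested genes were called in either direction. At an unadjusted p under 0.05 there were 32 members, 20 of the large and 12 of the small subunit, each with the larger response in Pachón cavefish. Of all tested genes 14.2% met that mark in that direction. The members' median difference was 0.90, against 0.29 over all tested genes, and 64 members lay above 0, against 71% of all tested genes. Relative to that median the members' value was 0.61 as deposited and 0.54 with median-of-ratios.

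mrps21 (ENSAMXG00000032876), a small subunit protein with a bacterial counterpart, had the lowest p. Surface libraries held 57.6, 87.8 and 86.8 TPM when starved and 84.1, 75.2 and 86.5 TPM when refed, which overlapped. Pachón libraries held 29.7, 52.7 and 33.0 TPM when starved and 155, 110 and 127 TPM when refed. The starved Pachón libraries were the lowest and the refed ones the highest of the 12. The difference in response was 1.67 ± 0.38, with a 95% interval from 0.84 to 2.49. The members next in order of p had differences of 1.04 ± 0.26 (mrpl13), 1.08 ± 0.28 (mrpl1), 1.73 ± 0.47 (mrpl11) and 1.41 ± 0.39 (mrpl58), with limma adjusted p of 0.149 to 0.169. Among the members with a higher p were differences of 2.09 ± 1.06 for the mrps24 row ENSAMXG00000042740, 1.66 ± 0.57 for mrpl30, 1.41 ± 0.45 for mrpl12, 1.33 ± 0.50 for mrpl46 and 1.23 ± 0.36 for mrps27 (limma adjusted p of 0.177 to 0.347).

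Before the meal the populations differed in few members. In starved fish 1 member was higher in Pachón cavefish and 3 were lower, against 6.04% and 7.02% of all tested genes. The members' median was -0.33, against -0.13 over all tested genes, and 11 members lay above 0, against 39.6% of all tested genes. The lower ones were mrpl12 by -1.20 ± 0.31, mrpl11 by -1.14 ± 0.33 and mrps21 by -1.01 ± 0.27 (limma adjusted p of 0.0295, 0.0457 and 0.0297). For mrpl12 the starved surface libraries held 5.55, 11.9 and 11.2 TPM, each above the starved Pachón libraries. mrpl37 (ENSAMXG00000032982), a protein found only in mitochondria, was higher, with 8.01, 14.2 and 10.2 TPM in starved surface libraries against 16.9 to 21.7 TPM in Pachón ones, a difference of 0.85 ± 0.23 (limma adjusted p = 0.0314).

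These 4 calls were fragile. Without starved Pachón replicate 1, without replicate 3 or without starved surface replicate 3, the library with the highest intestine markers, there were 0 calls, and the part of those markers was not tested. Without starved Pachón replicate 2 there were 2, and without starved surface replicate 2 there was 1. Of all tested genes, 7.93%, 6.45%, 10.3%, 9.88% and 9.62% were called in these fits in turn, against 13.1% with all libraries. Over the alternatives the highest adjusted p of each lay between 0.0906, for mrpl12, and 0.134, for mrpl11.

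After the meal 9 members were higher and 1 was lower in Pachón cavefish, against 9.82% and 3.62% of all tested genes, so the 13.6% of members that were higher lay near the share of all tested genes. The members' median was 0.55, against 0.18 over all tested genes, and 65 members lay above 0, against 64.5%. Libraries did not overlap in 36 members with Pachón cavefish higher, against 25.3% of all tested genes. The higher ones were mrpl39, mrpl2, mrps28, mrpl58, mrpl37, mrpl13, mrps9, mrpl22 and mrps26.

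mrpl39 (ENSAMXG00000014610), which has a domain like that of an aminoacyl-tRNA synthetase, had the largest difference. Refed surface libraries held 10.5, 6.46 and 9.53 TPM, and refed Pachón libraries 36.3, 26.8 and 26.7 TPM, a difference of 1.66 ± 0.37 (limma adjusted p = 0.0124). Starved libraries were similar, with 3.31, 11.5 and 10.6 TPM in surface fish and 7.90, 11.4 and 9.78 TPM in Pachón cavefish. mrpl2 differed by 1.16 ± 0.31, mrps28 by 1.00 ± 0.28 and mrps9 by 0.83 ± 0.19 (limma adjusted p of 0.0321, 0.0372 and 0.015). mrpl37 differed by 0.87 ± 0.23 (limma adjusted p = 0.0264), much as in starved fish. mrps6 was the lower one, by -0.73 ± 0.22 (limma adjusted p = 0.0464).

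These calls also moved with the scaling and with single libraries. Median-of-ratios left 2 higher and 1 lower, and quantile normalization 1 and 1. Of all tested genes 6.84% and 6.11% were then higher, against 9.82% as deposited. Without refed Pachón replicate 1, 2 or 3 there were 2, 3 and 4 calls. Without refed surface replicate 2 or 3 there were 1 and 3, and without starved Pachón replicate 2 there were 6. In these fits in turn, 9.4%, 7.97%, 8.91%, 8.45%, 11.1% and 11.9% of all tested genes were called in either direction, against 13.4%. Of the 10 calls none stood under every alternative run. The call of mrpl39 ended under 1 of 23, with an adjusted p of 0.0519.

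The proteins related to bacterial S18 are encoded by 3 genes, and in mammals the product of mrps18a sits in the large subunit. mrps18a had 7.04 ± 0.966 TPM in starved and 20.2 ± 3.63 TPM in refed Pachón cavefish (SD, n = 3), mrps18b 22.9 ± 7.23 and 88.3 ± 20.8 TPM, and mrps18c 58.3 ± 12.1 and 119 ± 24.4 TPM. Each rose, by 1.39 ± 0.36, 1.92 ± 0.32 and 1.02 ± 0.28 (limma adjusted p of 0.0126, 0.00113 and 0.016). In surface fish none passed the test, with changes of 0.35 ± 0.36, 0.87 ± 0.32 and -0.22 ± 0.28. The call of mrps18a ended only without refed Pachón replicate 1 (limma adjusted p = 0.0529). That of mrps18c was kept under 20 of 23 alternatives, with a limma adjusted p up to 0.0696. It ended with median-of-ratios, without refed Pachón replicate 1 and without starved Pachón replicate 1. mrps30, whose protein also lies in the large subunit of mammals, rose by 1.93 ± 0.30 in Pachón cavefish (limma adjusted p = 0.000728).

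Some members carry a name that needs care. mrps24 is listed under ENSAMXG00000042740 and ENSAMXG00000019368, and how reads were divided between copies was not tested, so their values are uncertain. The first had 0, 3.91 and 0 TPM in starved and 27.4, 8.89 and 11.4 TPM in refed Pachón libraries, and the second 4.57, 0.51 and 3.64 TPM and 12.1, 16.7 and 11.8 TPM. Both passed the test in Pachón cavefish, with the widest spread within groups of any member. mrps36, in mammals a subunit of the alpha-ketoglutarate dehydrogenase complex and not of the ribosome, rose by 0.91 ± 0.30 (limma adjusted p = 0.0366), a call that ended under 9 of 23 alternatives.

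Members with a bacterial counterpart and those found only in mitochondria both rose in Pachón cavefish. Of the 42 with a counterpart 36 rose, with a median of 1.12, and of the 24 others 18 rose, with a median of 1.53. These are 85.7% and 75% of their groups, against 22.9% of all tested genes. In surface fish 6 and 8 rose, with medians of 0.41 and 0.58, which are 14.3% and 33.3%, against 9.03% of all tested genes. Whether the groups differ was not tested.

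The ribosome's partners were taken from lists of names. The 5 mitoribosomal proteins under other names all rose in Pachón cavefish: gadd45gip1 by 2.09 ± 0.28, aurkaip1 by 1.77 ± 0.28, ptcd3 by 1.54 ± 0.23, dap3, a GTP-binding small subunit protein, by 1.33 ± 0.24 and chchd1 by 1.18 ± 0.32 (limma adjusted p of 0.0154 or lower). In surface fish 2 of them rose, gadd45gip1 by 1.08 ± 0.28 and aurkaip1 by 0.89 ± 0.28 (limma adjusted p of 0.0209 and 0.0442). Of 23 tested assembly factors 16 rose in Pachón cavefish and 6 in surface fish, which are 69.6% and 26.1%, against 22.9% and 9.03% of all tested genes. ybey, an endoribonuclease of ribosomal RNA maturation, rose by 3.88 ± 0.36 and 2.38 ± 0.36 (limma adjusted p of 0.00012 and 0.00182). eral1, a chaperone of the small ribosomal RNA, rose by 1.49 ± 0.21 and 0.80 ± 0.21 (limma adjusted p of 0.000442 and 0.0224).

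Factors that work on the assembled ribosome were counted in the same way. Of 14 translation factors 12 rose in Pachón cavefish and 3 in surface fish, which are 85.7% and 21.4%, against the same shares of all tested genes, 22.9% and 9.03%. gfm1, the mitochondrial elongation factor G, rose by 3.16 ± 0.38 and 1.73 ± 0.38 (limma adjusted p of 0.000264 and 0.0116). tsfm, the exchange factor of the elongation factor that brings in tRNA, rose by 2.55 ± 0.38 and 1.29 ± 0.38 (limma adjusted p of 0.000591 and 0.0354). mtif2, an initiation factor, rose by 1.92 ± 0.25 in Pachón cavefish (limma adjusted p = 0.000324). Of 10 genes of mitochondrial transcription and DNA upkeep 6, or 60%, rose in Pachón cavefish, among them tfb2m by 2.26 ± 0.29 and the polymerase polrmt by 1.25 ± 0.19 (limma adjusted p of 0.000322 and 0.000726). In surface fish 2, or 20%, rose, and polg, the DNA polymerase, fell by 0.75 ± 0.21 (limma adjusted p = 0.0311).

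Other sets of related genes gave other counts. Of 84 tested nuclear genes of the respiratory chain and ATP synthase, 26 rose and 0 fell in Pachón cavefish, with a median of 0.49, which is 31.0% against 22.9% of all tested genes. In surface fish 2 rose, or 2.38% against 9.03%, with a median of -0.04. The list of cytosolic ribosomal proteins, 78 tested genes taken by name, had medians of -0.25 and -0.20. In each population 1 gene of it rose, rpl7l1, whose name marks it as like rpl7 and not as rpl7 itself. It rose by 2.22 ± 0.40 in Pachón cavefish and 1.58 ± 0.40 in surface fish (limma adjusted p of 0.00184 and 0.0205). With TPM, the cytosolic list thus lay slightly below 0 while the mitochondrial members lay above it, and the difference between lists was not tested. Rows for genes encoded in mitochondrial DNA were not analysed here.

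**Figure D5:**
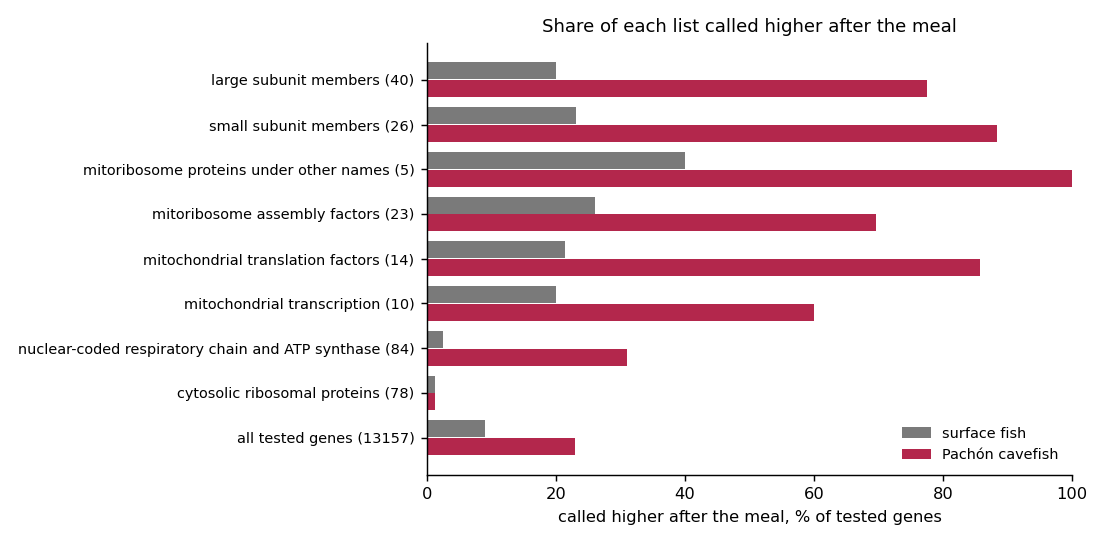
Share of each list that rose after the meal, in percent of its tested genes, with the number tested in brackets. In Pachón cavefish the share was 77.5% for the large and 88.5% for the small subunit, against 22.9% of all tested genes. For the list of cytosolic ribosomal proteins it was 1.28% in each population, which was the rpl7-like gene rpl7l1 alone.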

How the data were processed

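PolyA RNA of 12 liver libraries was sequenced. The authors deposited TPM per gene and library. Per the submitters' processing notes, the tools were RSEM, Bowtie2, STAR 2.6.1c and bcl2fastq 2.18, and what each did, the build and the annotation are not stated there.

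The test was limma 3.58.1 (R 4.3.3) on log2(TPM + 1), with 4 group means, a trended eBayes prior, 8 residual and 3.303 prior degrees of freedom. Tested were 13157 genes with at least 1 TPM in 3 or more libraries, adjusted by Benjamini and Hochberg in each of 5 comparisons. The fit was tested on simulated data with known changes, where noise was independent between genes and libraries. Members that deviate together within a library were not simulated, so calls under such a shared spread were not checked. No 2 libraries were identical.

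The members and lists were chosen with earlier results of these data known. Genes to be named were set by a rule. It took up to 8 called members of largest change each way per comparison, and a fixed set. It also took the 3 most and 3 least abundant of each subunit, and up to 4 called genes of other lists. Not all of these genes are described here: mrpl47, mrpl35, mrpl14, mrps2 and mrps7 are among those left out. Other genes named were chosen after their values were seen. Alternatives were pseudocounts, filters, scalings, pairwise fits, replicate block, weights and left-out libraries. RefSeq symbols came from assembly AstMex3_surface, which matched 64 of 65 member symbols.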

Additional observations from a re-analysis of the deposited data

How the results depend on the processing

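The count of calls in Pachón cavefish after the meal stayed within 1.5 times of 54 under the alternatives run, at 41 to 56 with 1 library left out and 48 with both starved surface replicate 2 and refed Pachón replicate 1 left out, a choice made after seeing the data. In these fits 20.9% to 33.4% and 24.1% of all tested genes were called in either direction, against 30.6% with all libraries. The difference in response had 0 calls under every alternative, where at most 0.401% of all tested genes were called. Counts in surface fish were 4 to 18 with 1 library left out, against 15. They were 3 in the fit of these libraries alone and 9 with the replicate block. Of all tested genes 10.9% to 18.4%, 6.36% and 14.5% were called in these fits, against 18.7%. Starved populations gave 0 to 5 with 1 library left out, 1 in the fit of these libraries alone and 0 with the replicate block. There were 7 with library weights and 1 with both libraries left out, against 4. Of all tested genes 6.45% to 13.7%, 8.71%, 9.87%, 18.8% and 9.3% were called in these fits in turn, against 13.1%. Refed populations gave 1 to 13 with 1 library left out, 3 with median-of-ratios, 2 with quantile normalization and 6 without the 20 most abundant genes. There were 3 with the replicate block and 4 with both libraries left out, against 10. Of all tested genes 7.97% to 15.2%, 12.5%, 11.9%, 13.8%, 10.3% and 10.5% were called in these fits in turn, against 13.4%. The ratio of large to small subunit with subunits assigned by structure was 1.26 in refed and 1.30 in starved Pachón cavefish and 1.22 in refed surface fish. With subunits by name, the ratio of geometric means of TPM + 1 was 0.730, 0.873 and 0.728 in these groups and 0.824 in starved surface fish. With 1 library left out the ratio of summed TPM by name was 1.098 to 1.11 in refed and 1.11 to 1.22 in starved Pachón cavefish. In surface fish it was 1.01 to 1.09 when refed and 0.984 to 1.11 when starved. The change of mrps18a in surface fish, which passed no test, was -0.048 without starved replicate 1 and at most 0.72 with 1 library left out. That of mrps18c was 0.00819 without starved replicate 2, alone or with refed Pachón replicate 1, and as low as -0.46 with 1 library left out. The causes were not tested. Same-numbered libraries did not deviate together: of 18 correlations of their deviations, from -0.245 to 0.123, 1 was over 0.1, so the numbers were not taken as pairs.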
